A study of Mus musculus with 6 samples.

Results

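The Rab genes encode the largest branch of the Ras superfamily of small GTPases. They were taken here as every protein-coding mouse gene whose symbol is Rab followed by a number and, where present, a letter, which gave 59 genes of the 38355 listed in the counts. Among them, 7 belong to the endosomal Rab5, Rab7 and Rab11 families and 4 to the Rab3 family of synaptic vesicles. RNA with a polyA tail was sequenced from the whole cortical tissue of C57BL/6 mice, an inbred wild-type strain, with 3 samples from mice of 6 months and 3 from mice of 16 months. The labels name no transgene and no treatment for either group beyond anesthesia with chloral hydrate before dissection. The study's methods give the mice for RNA sequencing as males, in their part on sorted cells, and the labels of these samples name no sex. The question put to the data was whether the transcripts of this family differ between the cortex of adult and of aged mice.

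A Rab protein is a switch on the surface of a membrane: it recruits effectors such as tethers, motors and release factors while bound to GTP, and leaves the membrane once GTP has been hydrolysed. Exchange factors, many with a DENN domain, load the GTP, and GTPase-activating proteins, most with a TBC domain, speed up its hydrolysis. In neurons, Rab3 proteins sit on synaptic vesicles and take part in regulated release, Rab5 marks early endosomes, Rab7 late endosomes and lysosomes, and Rab11 recycling endosomes.

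The members resemble each other most in the segments that bind GTP. The G3 box, which carries the glutamine that takes part in GTP hydrolysis, is printed because it is among the most alike stretches of these genes and still differs in its bases between close paralogs, which is what allows reads to be counted for each of them. Each line gives 57 coding bases, 5′ to 3′ on the strand of the gene, with the 7 codons of the G3 box in capitals.
Rab3a: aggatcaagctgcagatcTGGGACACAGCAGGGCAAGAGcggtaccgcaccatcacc
Rab3b: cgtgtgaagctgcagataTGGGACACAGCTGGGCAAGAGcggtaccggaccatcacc
Rab3c: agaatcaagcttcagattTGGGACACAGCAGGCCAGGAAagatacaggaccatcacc
Rab3d: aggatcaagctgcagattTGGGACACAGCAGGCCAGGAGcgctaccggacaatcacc
Rab5a: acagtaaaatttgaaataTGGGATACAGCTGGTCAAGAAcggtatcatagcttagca
Rab5b: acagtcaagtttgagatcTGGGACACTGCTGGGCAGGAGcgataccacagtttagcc
Rab5c: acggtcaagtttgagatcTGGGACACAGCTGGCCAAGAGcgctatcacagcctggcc
Rab7: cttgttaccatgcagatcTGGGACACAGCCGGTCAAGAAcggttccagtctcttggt
Rab11a: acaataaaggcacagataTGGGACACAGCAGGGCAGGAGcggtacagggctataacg
Rab11b: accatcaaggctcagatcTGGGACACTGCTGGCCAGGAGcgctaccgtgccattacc

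All of these stretches are exonic and coding in the GENCODE annotation of GRCm38. Those of Rab5a (chr17:53497565-53497621, plus strand), Rab5b (chr10:128683252-128683308, minus strand), Rab5c (chr11:100718488-100718544, minus strand), Rab11a (chr9:64728239-64728295, minus strand) and Rab11b (chr17:33749787-33749843, minus strand) lie within 1 exon. Those of Rab3a (chr8:70756063-70756482, plus strand), Rab3b (chr4:108890515-108923941, plus strand), Rab3c (chr13:110181062-110260499, minus strand), Rab3d (chr9:21914946-21915725, minus strand) and Rab7 (chr6:88005170-88012321, minus strand) are joined from 2 exons, and their coordinates include the intron between them. A G3 box with exactly these 7 residues was encoded by 49 of the 59 members, and Rab7b, the remaining member of the endosomal families, was among the 10 without it. Every member had at least 1 cysteine codon among its last 4 codons and 44 had 2 or more, at the end of the protein where Rab proteins receive their lipid anchor. The coding sequences had a median length of 648 bases, and 52 of them were no longer than 720 bases.

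Reads of 100 bases can tell these genes apart in their coding parts. Among the 21 pairs of members that share a number, coding identity lay between 61.4% for Rab7 and Rab7b and 78.5% for Rab6a and Rab6b, and the longest identical run was 38 bases, in Rab1a and Rab1b. Overlapping annotations and processed copies limit a few members more than their paralogs do. Rab4b shares 93.3% of its longest transcript with the readthrough gene Gm21983, which was listed at 0 counts in all samples, Rab24 overlaps Prelid1 on the other strand over 62.4% of its exon bases, and Rab43 and Rab2b share 90.5% and 68.8% of their longest transcripts with predicted genes. Of the endosomal members, Rab7 has 28.8% of its longest transcript in near-identical stretches of other genes, Rab5b 20.4% and Rab11b 15.1%. For Rab7 and Rab11b these genes include Gm5577 and Gm17251, which overlap them on the other strand. The strand setting of the counting was not given in the sources used here, so that counts of opposite-strand partners cannot be separated with certainty.

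The 6 samples held between 29797253 and 46519280 counts on genes. Lists of markers of neurons, astrocytes, oligodendrocytes and microglia were expressed in every sample, as the label of cortical tissue implies, and markers of neighbouring tissue were present as well. The summed level of 7 thalamic markers was 81.9 to 85.6 CPM (counts scaled to a library of 1000000) at 6 months and 106 to 114 CPM at 16 months, that of 6 dentate gyrus markers 71.2 to 73.3 and 89.5 to 100 CPM, and that of 6 choroid plexus markers 17.3 to 19.1 and 26 to 29.1 CPM. In the last list most of the difference lay in Ttr, with 8.95 ± 0.573 and 17.8 ± 1.08 CPM (SD, n = 3), and Kl had 5.38 ± 0.222 and 5.29 ± 0.296 CPM. Markers of blood were likewise higher at 16 months, at 44.9 to 50.3 CPM over 5 genes against 27.3 to 30.8 CPM, and those of the meninges lower, at 74.2 to 76.2 CPM over 6 genes against 95 to 99.3 CPM. In tissue samples of this kind, fewer cells of a type and less RNA per cell cannot be told apart. Replicates 1 and 2 of the 16-month group stood apart from each other in a manner that followed the GC content of the transcripts, which is described for the Rab genes further on, and the calls that appeared in single alternatives are given with the values without each of them. The samples of an age come from separate brains, and no pair of them agreed within sampling noise.

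Rab transcripts made up a nearly constant share of the cortical transcriptome. Together they took between 0.602% and 0.645% of all counts, with a summed level of 6046, 6174 and 6136 CPM in the 3 samples of 6 months and of 6067, 6531 and 6276 CPM in those of 16 months, so that the ages overlapped. Within the family, levels differed widely. Per kilobase of exon, 34 members lay above 10 CPM, 15 between 1 and 10 CPM and 10 below 1 CPM. Reads on features shared by several genes are not in the counts, while the shared bases are in the length. Levels of Rab43, Rab4b, Rab2b and Rab24, with 75.4%, 65%, 64% and 62.4% of exon bases shared, may therefore be too low. The highest were Rab6b and Rab6a, which act in transport at the Golgi apparatus, with 191 and 178 CPM per kilobase at 6 months, followed by Rab3a with 162 and Rab2a, a regulator of transport between ER and Golgi, with 124 CPM per kilobase. Rab6a and Rab6b cannot be ranked, since Rab6b held 51.7% ± 0.988 (SD, n = 3) of their summed level at 6 months with all exons taken as the length and 48.1% ± 0.989 with the longest transcript, a choice added after the data were seen.

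**Figure D1:**
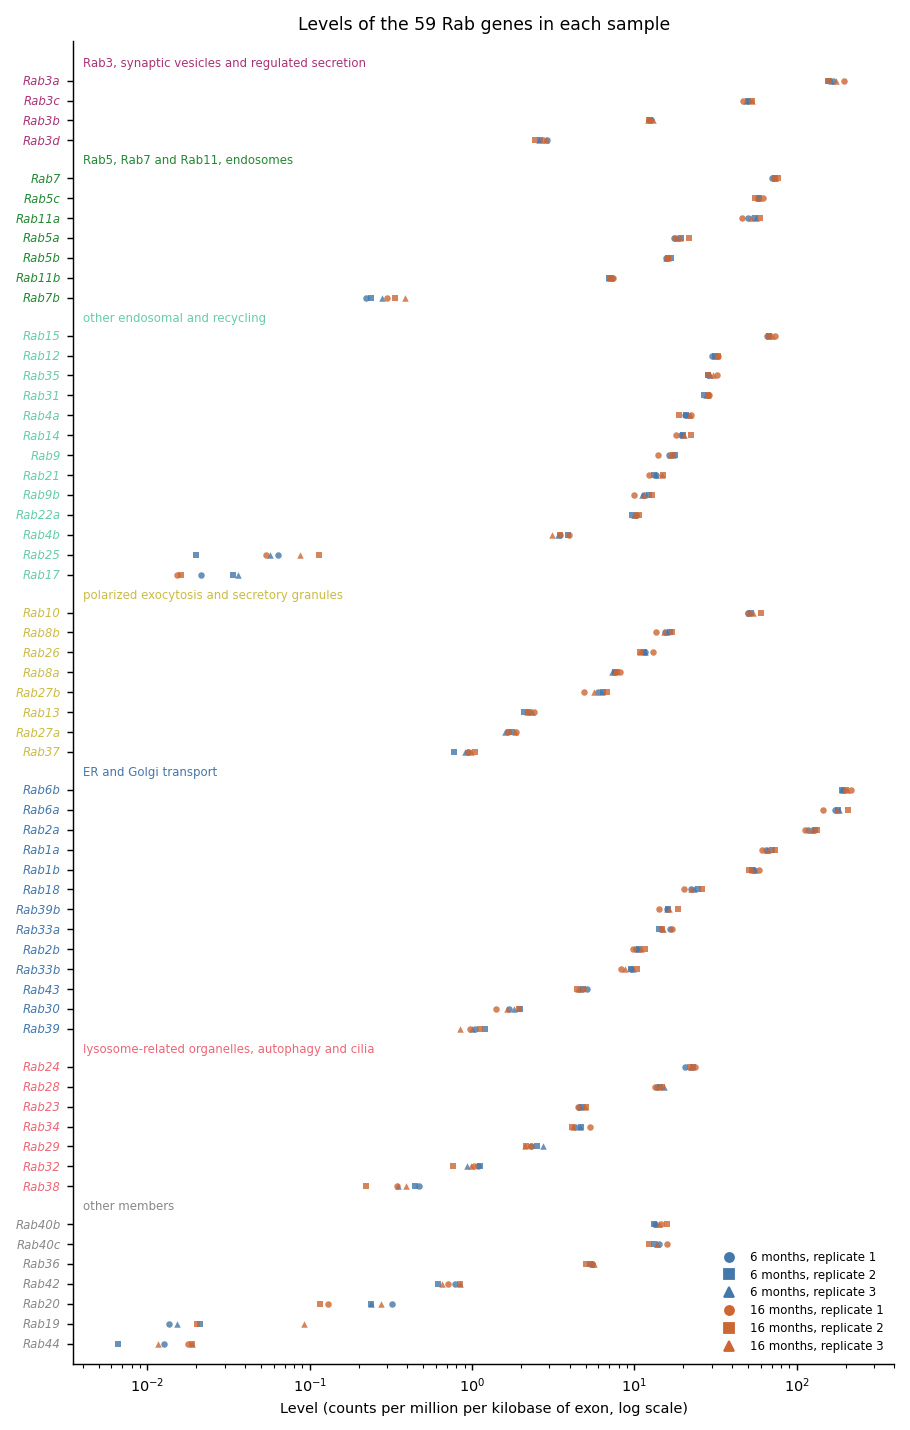
Level of each of the 59 Rab genes in CPM per kilobase of exon (log scale), grouped by the role of the protein, with 1 point per sample coloured by age and shaped by replicate number. Samples of both ages lie close together for nearly all genes against a range from 0.0127 CPM per kilobase (Rab44, mean of 6 months) to 207 (Rab6b, mean of 16 months), and values of 0 (1 sample each of Rab17 and Rab19) are not drawn.

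At the low end, 4 members had too few counts to be tested. Rab19 and Rab17 had 9 counts each over all 6 samples, Rab44 had 16 and Rab25, a Rab11 relative of epithelia, had 24. Just above the filter on low counts stood Rab20 with 69, Rab42 with 124 and Rab38 with 129 counts in all. The remaining 55 members were tested, with a median level of 44.4 CPM against 17.8 CPM over the 17120 genes tested.

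None of the 55 tested Rab genes passed the threshold between 6 and 16 months, where 286 genes, or 1.67% of those tested, did so (edgeR's quasi-likelihood test, Benjamini-Hochberg adjusted p under 0.05). The smallest adjusted p of a member was 0.188, for Rab7b. Without adjustment, 3 members (5.45%) had a p under 0.05, namely Rab7b, Rab6b and Rab40b, against 17.4% of all tested genes. DESeq2 called 0 members too, with 471 genes called in all, and gave an unadjusted p under 0.05 to 1 member, Rab6b. In 7 of the 55 members (12.7%) the samples of the ages did not overlap, 6 of them higher at 16 months, against 23.7% of all tested genes.

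The intervals of the differences were narrow for most members. The log2 fold change of 16 over 6 months was positive for 32 members and negative for 23, with a median of 0.014 against 0.0014 over all tested genes. Its absolute size had a median of 0.045 for the members and 0.10 for all tested genes, whose median level was lower. For 45 members the 95% confidence interval lay within a change of 1.23-fold in either direction, and for 52 within 1.5-fold. Rab7b, Rab38 and Rab20, all near or below 1 CPM, were the 3 whose intervals reached beyond 1.5-fold.

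**Figure D2:**
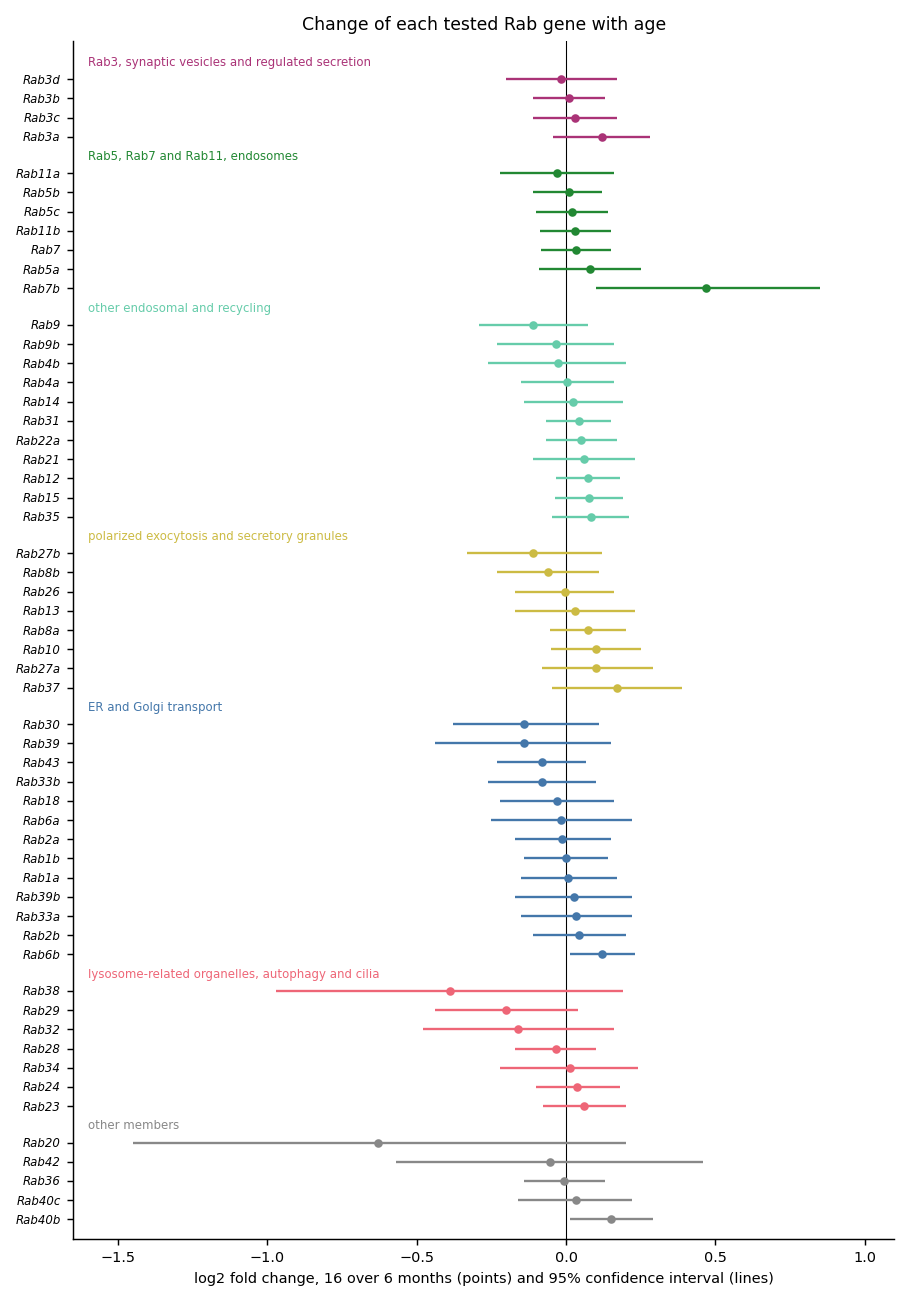
log2 fold change of 16 over 6 months for the 55 tested Rab genes (points) with 95% confidence intervals (lines), grouped by role. The intervals of Rab7b, Rab6b and Rab40b do not cross 0, none of the genes passed the threshold after adjustment, and the widest intervals belong to the low-count genes Rab20, Rab38 and Rab42.

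Of the synaptic vesicle members, Rab3a, the main Rab3 protein of the brain, had 371, 347 and 363 CPM at 6 months and 433, 353 and 387 CPM at 16 months. Rab3c had 604, 603 and 591 CPM in the younger and 559, 642 and 635 CPM in the older samples. Rab3b was found at 44.4, 44.3 and 42.9 CPM against 43.3, 43.3 and 45.8 CPM. The ages overlapped for all of these, with the highest Rab3a value and the lowest Rab3c value both in replicate 1 of 16 months. Rab3d, known for secretory granules outside the brain, was the lowest of the family, with 12.1, 11 and 10.8 CPM at 6 months and 11.5, 10.2 and 11.9 CPM at 16 months, and its samples overlapped as well.

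The difference was 1.09-fold for Rab3a (95% confidence interval 0.97 to 1.21, adjusted p = 0.446), 1.02-fold for Rab3c (0.93 to 1.12, adjusted p = 0.836), 1.01-fold for Rab3b (0.927 to 1.09, adjusted p = 0.948) and 0.988-fold for Rab3d (0.87 to 1.12, adjusted p = 0.941). The median log2 fold change of the 4 genes was 0.02. All 4 intervals therefore exclude a change of 1.23-fold in either direction. Summed over the family, the level was 1032, 1006 and 1008 CPM at 6 months and 1047, 1049 and 1080 CPM at 16 months, so that all older samples lay above all younger ones, and no test was made on the sum.

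Rab3a accounted for most of the Rab3 transcripts at either age. Per kilobase of exon it held 71.4% ± 0.76 (SD, n = 3) of the family at 6 months and 72.6% ± 3.09 at 16 months, and Rab3c held 21.9% ± 0.597 and 21.1% ± 2.75. Neither share differed between the ages by more than the spread between samples (exact permutation test, two-sided, p = 0.9 for both, adjusted p = 0.9 over the 13 shares compared in 5 families). With 3 samples against 3, this test cannot give a p under 0.1. Rab3c has 12049 bases of annotated exons, so a cortex that used only its shorter transcripts would have a larger Rab3c share than this measure gives.

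Among the endosomal members, the 3 Rab5 genes encode the regulators of early endosome fusion. Rab5a had 92.2, 102 and 96.5 CPM at 6 months and 93.7, 114 and 100 CPM at 16 months. Rab5b had 66.2, 70.3 and 65.5 CPM against 67, 68 and 68 CPM. Rab5c had 127, 128 and 126 CPM against 136, 122 and 129 CPM. All 3 overlapped between the ages, and replicates 1 and 2 of 16 months held the extremes of Rab5a and Rab5c in that group, in opposite order. Rab5c, the most abundant of them per length, held 62.7% ± 0.89 (SD, n = 3) of the Rab5 transcripts at 6 months and 62.3% ± 2.61 at 16 months (exact permutation test, p = 0.8, adjusted p = 0.9).

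The fold change was 1.06 for Rab5a (95% confidence interval 0.94 to 1.19, adjusted p = 0.628), 1.01 for Rab5b (0.929 to 1.09, adjusted p = 0.951) and 1.01 for Rab5c (0.933 to 1.1, adjusted p = 0.875). Rab7, which acts in the maturation of late endosomes and autophagosomes and in their fusion with lysosomes, had 183, 193 and 193 CPM at 6 months and 189, 201 and 191 CPM at 16 months. Its fold change was 1.02 (0.944 to 1.11, adjusted p = 0.792), the interval again within 1.23-fold. Gm5577, an antisense gene, overlaps the exons of Rab7 on the other strand over 204 bases. It was counted at 6.78, 7.8 and 7.68 CPM in the younger and 5.88, 6.25 and 5.8 CPM in the older samples (adjusted p = 0.113), a few percent of the level of Rab7. Counts of Rab7-ps1, the other gene with bases near-identical to Rab7, are not given here.

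Rab7b stood apart from the other endosomal genes in level and in the size of its difference. It encodes a distant relative of Rab7 that acts between late endosomes and the trans-Golgi network, and it was at 1.02, 1.1 and 1.29 CPM at 6 months and 1.39, 1.56 and 1.79 CPM at 16 months. All older samples lay above all younger ones. The values rest on 33 to 54 counts per sample at 6 months and 46 to 61 at 16 months. The fold change was 1.39 (95% confidence interval 1.07 to 1.8), with an unadjusted p of 0.018 that did not pass after adjustment (adjusted p = 0.188), and Rab7b was not called under any of 18 alternatives, with adjusted p between 0.0779 and 0.489. Its share of the summed Rab7 and Rab7b level was 0.337% ± 0.0332 (SD, n = 3) at 6 months and 0.458% ± 0.0583 at 16 months, without overlap (exact permutation test, p = 0.1, the smallest the design allows, adjusted p = 0.65 over the 13 shares). Markers of blood, given above, were higher in the same samples, whereas the summed level of 8 microglial markers was 443 to 461 CPM at 6 months and 449 to 457 CPM at 16 months. Of these 8 genes, 3 had a positive and 5 a negative log2 fold change. Aif1 was called lower (7.34 ± 0.541 and 5.44 ± 0.215 CPM, SD, n = 3, adjusted p = 0.0418). Csf1r was higher, at 99.3 ± 5.19 and 118 ± 7.51 CPM (adjusted p = 0.0926). The part of either set of markers in the Rab7b values was not tested.

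Rab11a and Rab11b serve recycling endosomes, which return receptors to the plasma membrane. Rab11a had 151, 165 and 167 CPM at 6 months and 138, 178 and 157 CPM at 16 months, and Rab11b had 44.5, 42.9 and 42.8 CPM against 45.5, 43.6 and 43.9 CPM. The older samples of Rab11a spanned the whole range of the younger ones. The fold change was 0.979 for Rab11a (95% confidence interval 0.857 to 1.12, adjusted p = 0.888) and 1.02 for Rab11b (0.942 to 1.11, adjusted p = 0.809). The direction of Rab11a depended on the processing, with a log2 fold change of -0.031 here and 0.09 with offsets for GC content and length (adjusted p = 0.0685, between 0.0447 and 0.995 over all alternatives). The median log2 fold change of the 7 endosomal genes was 0.03, next to 0.02 for the Rab3 genes and 0.014 for all tested members, and 6 of the 7 were positive.

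**Figure D3:**
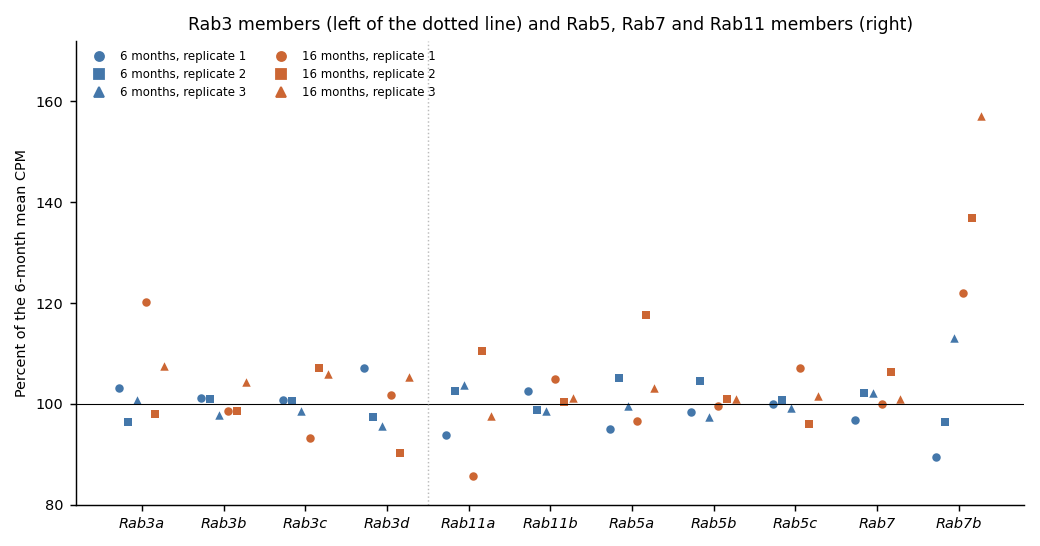
CPM of the Rab3 members and of the Rab5, Rab7 and Rab11 members in each sample, as a percentage of the mean of the 3 samples of 6 months (line at 100). Rab7b is the only one of the 11 genes whose older samples all lie above the younger ones, and in Rab3a, Rab3c, Rab11a, Rab5a and Rab5c replicates 1 and 2 of 16 months lie on opposite sides of replicate 3 or of the line.

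In the other groups of members, each sorted by the best-known role of the protein, 0 genes were called as well. The 13 genes of ER and Golgi transport had a median log2 fold change of -0.012 (5 positive, 8 negative), the 11 tested genes of other endosomal and recycling routes 0.042 (8 positive, 3 negative), and the 8 genes of polarized exocytosis and secretory granules 0.051 (5 positive, 3 negative). The 7 genes of lysosome-related organelles, autophagy and cilia had a median of -0.035 (3 positive, 4 negative), and the 5 tested members of other or less defined roles one of -0.0073 (2 positive, 3 negative).

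After Rab7b, the largest positive differences among the members were seen for Rab37, Rab40b, Rab6b and Rab3a. Rab37, a Rab of secretory granules, had 5.01, 4.13 and 4.79 CPM at 6 months and 5.04, 5.58 and 5.24 CPM at 16 months. Rab40b, which carries a SOCS box that binds a ubiquitin ligase, had 27.1, 26.5 and 27.4 CPM against 29.5, 31.9 and 28.4 CPM. Rab6b, the neuronal isoform of the Golgi Rab6, had 970, 956 and 954 CPM against 1089, 1015 and 1027 CPM. In all 3 the ages did not overlap, while for Rab37 the gap between them was only 0.0249 CPM wide. The fold changes were 1.13 for Rab37 (95% confidence interval 0.968 to 1.31, adjusted p = 0.406), 1.11 for Rab40b (1.01 to 1.22, adjusted p = 0.25) and 1.09 for Rab6b (1.01 to 1.17, adjusted p = 0.239). Rab12 and Rab8a were the other members with higher older samples throughout, with fold changes of 1.05 each and adjusted p of 0.471 and 0.551.

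The most negative differences belonged to Rab20, Rab38, Rab29, Rab32 and Rab39, of which the first is at the edge of detection. Rab20 was at 0.448, 0.333 and 0.334 CPM in the younger and 0.181, 0.16 and 0.381 CPM in the older samples, which are 10 to 21 and 5 to 13 counts. Rab38 and Rab32 act together in the biogenesis of melanosomes and other lysosome-related organelles. Rab38 had 0.747, 0.7 and 0.548 CPM against 0.543, 0.351 and 0.615 CPM, and Rab32 had 2.54, 2.6 and 2.19 CPM against 2.41, 1.79 and 2.31 CPM. The ages overlapped in all of these, and the folds of 0.647 for Rab20 (95% confidence interval 0.365 to 1.15, adjusted p = 0.419), 0.763 for Rab38 (0.51 to 1.14, adjusted p = 0.485) and 0.894 for Rab32 (0.716 to 1.12, adjusted p = 0.611) leave room for changes in both directions.

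Rab29, which acts with the kinase LRRK2 at the Golgi apparatus and lysosomes, was the only member whose older samples all lay below the younger ones. It had 3.39, 3.67 and 4.03 CPM at 6 months and 3.38, 3.16 and 3.1 CPM at 16 months, a fold of 0.871 (95% confidence interval 0.737 to 1.03, adjusted p = 0.375). The nearest samples of the ages differed by 0.0131 CPM. Rab39 had 3.09, 3.57 and 2.98 CPM against 2.87, 3.32 and 2.49 CPM, with overlap and an adjusted p of 0.62.

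The samples of 16 months were more spread than those of 6 months in the family as in the transcriptome. The SD of log2 CPM had a median over the members of 0.0495 at 6 months and 0.128 at 16 months, and it was larger at 16 months in 45 of 55 members (81.8%), against 75.5% of all tested genes. Rab6a shows the pattern at a high level, with 642, 674 and 679 CPM at 6 months and 539, 773 and 660 CPM in replicates 1, 2 and 3 of 16 months. The log2 ratio of replicate 1 to replicate 2 of 16 months ran from -0.52 to 0.63 over the 55 tested members. It was below 0 in 29 and above 0 in 26.

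This ratio followed the GC content of the transcripts. Members of low GC content such as Rab27b, Rab11a and Rab3c, with 37.9%, 39.5% and 41.9%, were lower in replicate 1, at 52.5 against 72.7 CPM for Rab27b, and GC-rich members such as Rab3a and Rab34, with 55% and 59.5%, were higher, at 433 against 353 CPM for Rab3a. Over the 52 members above 1 CPM the ratio correlated with GC content at r = 0.84, and over all 14476 genes above that level at r = 0.775. Without a minimum level the correlation was 0.723 over the 55 tested members and 0.486 over the 16904 tested genes with a GC content. These are descriptions across genes of 2 samples, which share their libraries. Within the 6-month group the deviation of a sample from the mean of its age correlated with GC content at -0.13 to 0.16, compared with 0.588 for replicate 1, -0.582 for replicate 2 and -0.0545 for replicate 3 of 16 months. What set these samples apart was not tested.

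**Figure D4:**
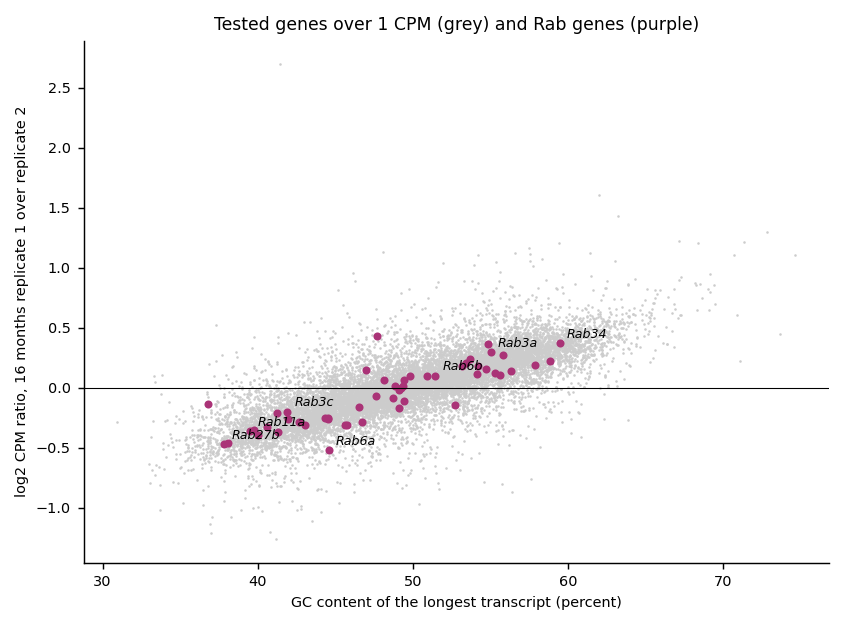
log2 ratio of CPM in replicate 1 over replicate 2 of 16 months against the GC content of the longest transcript, for the 14476 tested genes above 1 CPM in grey and the 52 Rab genes among them in purple. The ratio of the Rab genes increased with GC content (r = 0.84), as did that of all genes drawn (r = 0.775), with exceptions such as Rab37, which lies below 0 at 52.7% GC, and Rab32, which lies above 0 at 47.7%.

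Offsets for GC content and length were then taken from the deviation of each sample from the mean of all 6 samples. They therefore also remove any difference between the ages that follows GC content or length. With these offsets, the median standard error of the members' log2 fold changes went from 0.0758 to 0.0424. In that fit 2376 genes were called, which is 13.9% of those tested. Of the 55 members, 3 were then called, a share below that background, namely Rab3a, Rab10 and Rab40b. All were higher at 16 months, with log2 fold changes of 0.13 ± 0.0336 (SE, adjusted p = 0.0199), 0.10 ± 0.0317 (adjusted p = 0.0412) and 0.16 ± 0.0472 (adjusted p = 0.0409). Over all alternatives their adjusted p lay between 0.00217 and 0.773, between 0.0124 and 0.759 and between 0.0362 and 0.576. Rab10, named here for this call and after its values were seen, acts in exocytosis and is a substrate of LRRK2, and it had 175, 183 and 179 CPM at 6 months and 175, 211 and 189 CPM at 16 months. Leaving out replicate 2 of 16 months gave 2211 called genes (12.7%) and 2 called members: Rab3a at a log2 fold change of 0.19 (adjusted p = 0.047) and Rab27b, a Rab of secretory vesicles also named after its values were seen, at -0.24 (adjusted p = 0.0307, between that value and 0.992 over all alternatives). Leaving out replicate 1 of 16 months instead gave log2 fold changes of 0.038 for Rab3a (adjusted p = 0.729) and -0.0021 for Rab27b (adjusted p = 0.992), so that both calls depended on which of these samples was kept. Rab10 was at 0.16 without replicate 1 (adjusted p = 0.0853) and at 0.029 without replicate 2 (adjusted p = 0.759), and Rab40b at 0.16 and 0.10 (adjusted p = 0.154 and 0.258). Leaving out any single sample other than replicate 2 of 16 months called 0 members.

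Few of the genes that act on or with Rab proteins were called either. Of 144 tested genes in 11 lists of exchange factors, GTPase-activating proteins, effectors and enzymes of the membrane cycle, 1 (0.694%) was called, and it was lower at 16 months, next to 1.67% of all tested genes. An unadjusted p under 0.05 was found for 24 (16.7%) against 17.4% of all tested genes, and the median log2 fold change of the 144 genes was 0.013. The called gene was Dennd3, an exchange factor for Rab12, with 9.13, 8.23 and 7.6 CPM at 6 months and 6.09, 5.55 and 5.42 CPM at 16 months. It fell by 0.55 ± 0.0952 on the log2 scale (SE, adjusted p = 0.0224), without overlap between the ages. The call was lost without any single one of the 6-month samples and without replicate 3 of 16 months, and the log2 fold change stayed between -0.62 and -0.37 over all alternatives. Rab12 itself was at 91.7 to 95.7 CPM in the younger and 98.1 to 100 CPM in the older samples.

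In the lists of the synaptic members, 7 exchange factors, GTPase-activating proteins and partners of Rab3 gave 0 calls and a median log2 fold change of 0.041, and 14 tested effectors of Rab3 and Rab27 gave 0 calls and one of 0.034. An unadjusted p under 0.05 was found for 1 of the 7 and for 5 of the 14, where 17.4% of all tested genes had one. Rab3ip, an exchange factor of Rab8 that binds Rab3, had the largest difference in the first list, with 29.9 ± 0.324 CPM (SD, n = 3) at 6 months and 34.3 ± 0.775 CPM at 16 months (adjusted p = 0.0977). Madd, the Rab3 exchange factor of synapses, had 250 ± 7.4 and 266 ± 17.8 CPM (adjusted p = 0.484). In the second list, the effectors Sytl4 and Sytl1 were at 1.16 ± 0.0582 and 1.98 ± 0.225 CPM at 6 months and at 0.773 ± 0.114 and 1.34 ± 0.109 CPM at 16 months (adjusted p = 0.142 and 0.102).

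The lists of the endosomal members held 58 tested genes and 0 calls. Of the 58, 8 had an unadjusted p under 0.05, next to 17.4% of all tested genes. Exchange factors of Rab5 had a median log2 fold change of 0.026 (6 of 8 positive), with the largest difference in Rin1, a Ras effector that activates Rab5, at 61.3 ± 0.846 CPM (SD, n = 3) and 72.6 ± 4.97 CPM (adjusted p = 0.0784). Effectors of Rab5 on early endosomes had a median of -0.074 over 11 genes, led by the adaptor Appl2 with 151 ± 3.62 and 133 ± 6.38 CPM (adjusted p = 0.131) and followed by Pik3r4, a subunit of the lipid kinase complex Vps34, with 37.1 ± 1.6 and 40.3 ± 1.54 CPM (adjusted p = 0.329). None of these differences passed the threshold here. Rin1 passed it under 7 of 18 alternatives, over which its adjusted p lay between 0.00122 and 0.331. Appl2 passed it with the offsets for GC content and length and without replicate 2 of 16 months.

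Regulators of Rab7 had a median log2 fold change of -0.058 over 8 genes, and the HOPS tethering complex, retromer and other partners of Rab7 one of -0.0015 over 17 genes. Vps35, the core subunit of retromer, was at 305 ± 4.22 CPM (SD, n = 3) at 6 months and 275 ± 25.8 CPM at 16 months (adjusted p = 0.295), and its partner Vps26b at 130 ± 2.94 and 143 ± 2.21 CPM (adjusted p = 0.204). Mon1b, of the complex that loads Rab7 with GTP, was at 37.6 ± 1.03 and 41.1 ± 1.38 CPM (adjusted p = 0.278), and Tbc1d15, a GTPase-activating protein of Rab7, at 54.9 ± 2.29 and 49.5 ± 7.89 CPM (adjusted p = 0.483). Effectors and exchange factors of Rab11 had a median of 0.044 over 14 genes, where Rab11fip1 and Evi5 had the largest differences, at 2.82 ± 0.391 and 133 ± 4.07 CPM against 2.26 ± 0.178 and 118 ± 13.5 CPM (adjusted p = 0.282 and 0.297).

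Among the lists not tied to a single family, 7 genes of prenylation and the membrane cycle had a median of -0.064 and 0 calls, with Chm, the escort protein that presents Rab proteins for lipid attachment, at 113 ± 3.25 and 97.1 ± 17.2 CPM (SD, n = 3, adjusted p = 0.315). The prenylated Rab acceptor Rabac1 was at 104 ± 1.19 and 94.6 ± 15.5 CPM (adjusted p = 0.511). The 18 tested genes with a DENN domain, Dennd3 included, had a median of -0.0026, and the 39 with a TBC domain one of 0.025 with 0 calls. In the latter list, Tbc1d10c and Grtp1 had the largest differences, each at -0.28 on the log2 scale (adjusted p = 0.601 and 0.239).

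The list of LRRK kinases and Rab phosphatases, which also holds Rilpl1 and Rilpl2, had a median of 0.052 over 7 genes. Ppm1h, the phosphatase that removes the phosphate placed on Rab proteins by LRRK kinases, was at 108, 101 and 102 CPM at 6 months and 130, 121 and 121 CPM at 16 months, without overlap. Its log2 fold change of 0.26 ± 0.0544 (SE) missed the threshold narrowly (adjusted p = 0.0502) and passed it under 10 of 18 alternatives, over which the adjusted p lay between 0.000333 and 0.281. Ppm1j, its relative, was at 0.385 ± 0.0424 and 0.456 ± 0.0113 CPM (adjusted p = 0.683). Rilpl1, named after its values were seen, was at 57.2 ± 0.892 and 67.8 ± 3.84 CPM (SD, n = 3, adjusted p = 0.0703). It passed the threshold with DESeq2 and with the offsets for GC content and length, but not when any 1 of the 6-month samples was left out.

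**Figure D5:**
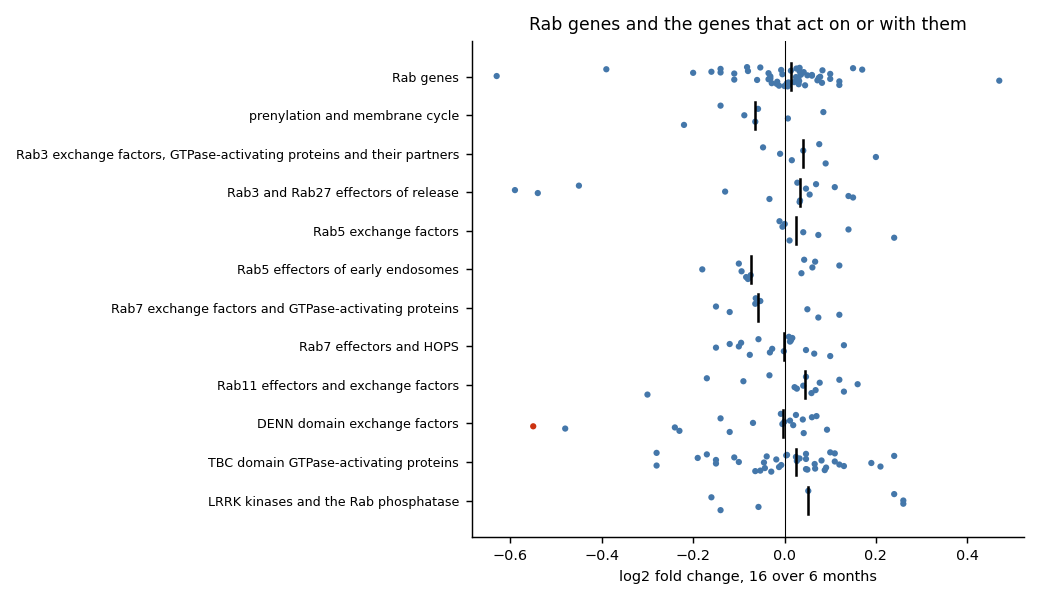
log2 fold change of 16 over 6 months for the 55 tested Rab genes and for the genes of 11 lists of regulators and effectors (points), with the median of each list as a black bar. Red marks the only gene that passed the threshold, Dennd3, and all medians lie between -0.074 and 0.052.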

How the data were processed

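The authors trimmed the reads, aligned them to mm10 with STAR and counted them per gene with HTSeq on the Ensembl annotation. The submitters' processing notes list STAR 2.3.0e and featureCounts 1.5.0-p1 instead. The deposited values are the raw counts of each sample as whole numbers, and the summary lines at the end were left out of library sizes. Reads on features shared by several genes, and those aligned to several places, are not in these counts. In the growth protocol the younger mice are 3 months old, whereas the other labels, followed here, say 6.

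Identifiers were matched to the GENCODE annotation of GRCm38 (36602 of 38355), which gave symbols, positions, exon lengths and coding sequences. The counts were fitted in edgeR 4.0.16 (R 4.3.3) with TMM normalization, filterByExpr by age and the quasi-likelihood test without covariates on 17120 genes, with Benjamini-Hochberg adjustment over all of them. Levels are CPM after TMM, divided by the union of exons for comparisons between genes. Standard errors are the log2 fold change divided by the square root of F, and 95% confidence intervals use the t quantile at the 9.9 degrees of freedom of the fit. Depth sets a floor of 3 counts, or 0.064 to 0.1 CPM, which covers counting error only. Copies were searched with blastn 2.17.0 (97% identity over 100 bases). The main fit, the fit with the replicate block and DESeq2 were also run on simulated counts. Those counts held no deviation between samples with GC content, so they do not bear on that part of the data. GC content offsets are medians, over 20 bins of genes, of the deviation from the mean of all 6 samples, and the same was done for length.

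Values per sample are given for the Rab3, Rab5, Rab7 and Rab11 members and for the 5 tested members with the largest positive and the 5 with the most negative log2 fold change, and in each list for the called genes or otherwise the 2 with the largest change. The members, the lists, the role groups and the alternatives were chosen with earlier results of these data known. The symbols Zfyve20 and Dennd2b of the lists did not match and are other names of Rbsn and St5, which were tested. A result that the rule for named genes covers is not reported here.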

Additional observations from a re-analysis of the deposited data

How the results depend on the processing

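Of 340 values of the 19 named members under 18 alternatives, 315 kept their direction and their side of the threshold, 19 changed sign and 7 newly passed the threshold, 1 of which, Rab11a with the offsets and the replicate block, did both. The number of called genes, 286, became 648 with no filter on low counts, 471 with DESeq2 (470 with a prior on fold changes), 783 with the replicate block, 2376 with GC content and length offsets and 3133 with these offsets and the block, and lay between 48 and 2211 when 1 sample was left out. The number of called Rab members, 0, became 3 with the offsets and 5 with the offsets and the replicate block (Rab3a, Rab6b, Rab10, Rab11a and Rab40b, where 18.3% of all genes were called), and lay between 0 and 2 when 1 sample was left out. The number of called pathway genes, 1 of 144 tested, became 2 with RLE normalization or edgeR's newer quasi-likelihood form, 3 without the filter, 4 with DESeq2 with or without the prior and 5 with the block. It became 22 with the offsets and 30 with the offsets and the block, where 13.9% and 18.3% of all genes were called. When 1 sample was left out it lay between 0 and 22. The 22 were called without 16-month replicate 2, where 12.7% of all genes were called. Of the genes named above, Rab3ip, Rin1, Appl2, Chm, Evi5, Ppm1h, Rilpl1 and Dennd3 were called in this fit and in both fits with offsets. Sytl1 was called in both fits with offsets only. Sytl4, Vps26b and Rabac1 were called with the offsets and the block, and Vps35 and Tbc1d15 without 16-month replicate 2. The medians of all members, of the endosomal members and of the Rab3 members moved by less than the spread between samples under every alternative, although that of all members was -0.00029 with upper quartile normalization and that of the Rab3 members -0.007 without 16-month replicate 3.

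Changes of sign were seen for 7 genes near 0. When 1 sample was left out, the log2 fold change of Rab5a lay between -0.00096 and 0.14, of Rab5b between -0.011 and 0.04, of Rab5c between -0.017 and 0.059, of Rab11a between -0.13 and 0.055, of Rab3b between -0.018 and 0.023, of Rab3c between -0.0056 and 0.092 and of Rab3d between -0.063 and 0.046. Rab5b was also at -0.006 and Rab3b at -0.0053 with upper quartile normalization, and Rab3b at -0.0044 after thinning to the smallest total. With the offsets, without and with the block, Rab5b was at -0.0038 and -0.0039, Rab11a at 0.09 and Rab3b at -0.013 in both. The cause of these changes was not tested.

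The ages share replicate numbers, but a number marks a different mouse in each. Deviations from the age means correlated between same-numbered samples at 0.18, 0.0958 and 0.0351, and between samples of different numbers at -0.133 to 0.0379. The numbers were not taken to pair the samples in the main fit, and whether they mark a shared batch was not tested. The replicate block alone called 0 members. With the longest transcript as length, Rab3a held 72.7% of the Rab3 level at 6 months and Rab5c 55.8% of the Rab5 level. Low members, such as Rab20 with 5 to 21 counts per sample and Rab7b with 33 to 61, had few counts behind their values, and 45 of the 55 tested members had a larger SD at 16 months than at 6 months.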

Other observations

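Rab10os, an antisense gene that overlaps Rab10 and is no member, was at 55.2, 57.2 and 56.6 CPM in the samples of 6 months and at 52, 48.1 and 45.1 CPM in those of 16 months, without overlap between the ages (log2 fold change -0.22 ± 0.0623 SE, adjusted p = 0.116, edgeR's quasi-likelihood test). It was chosen after its values were seen. Rab10 lay on the other side of 0, at 0.10 ± 0.0683 on the log2 scale (adjusted p = 0.491), and the 2 genes share 3.9% of the longest Rab10 transcript. Without a stated strand setting, reads in the shared part cannot be assigned to either gene with certainty.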
